A study of Mus musculus with 18 samples.

Results

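The comparison concerned colon crypt epithelial cells of mice labelled Ern2-/- and WT after gut microbes had been given to germ-free animals. Its members were the libraries that the labels placed in COLONIZED-WT and COLONIZED-Ern2-/-, 3 in each group, which made 6 of the 18 libraries of the series. The other libraries came from germ-free (GF) and conventionally raised (CONV) mice of the same genotype labels, again 3 per group. All mice were C57BL/6 per the labels, and the Ern2 deletion was carried by the whole animal rather than by the gut alone. Germ-free animals of both genotypes came from rederivation and lived in sterile isolators. Both COLONIZED groups then received cecal contents of conventional WT donors in a single gavage and were examined 14 days later, housed in sterile cages outside the isolator. Neither age nor cohousing nor litters were given for these animals. Intact crypts were released with EDTA and kept as the fraction held back by a fine strainer, so that the RNA came from whole crypts and not from sorted goblet cells. The comparison addressed which genes differ in level between the genotypes once both carry microbes from the same source.

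ERN2, also called IRE1β, is a sensor of stress in the endoplasmic reticulum (ER) that is largely restricted to mucus-secreting epithelium, while its relative ERN1 (IRE1α) is found in most cells. Both carry an RNase that splices Xbp1 mRNA, from which the transcription factor XBP1 is then made, and XBP1 enlarges the capacity of the ER for folding and secretion. When folding falls behind, the unfolded protein response raises ER chaperones through ATF6 and XBP1, and genes for amino acid supply, redox balance and cell death through ATF4 and CHOP. Goblet cells carry an unusually heavy load of such folding, since they make MUC2 and other large mucus proteins that separate the microbes of the colon from its epithelium.

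Counts assigned to genes summed to 19821960, 20430725 and 18824582 in replicates 1, 2 and 3 of COLONIZED-WT and to 20231830, 16008880 and 14046576 in those labelled COLONIZED-Ern2-/-. In what follows, 3 values in a row are normalized counts of replicates 1, 2 and 3, that is, counts divided by the DESeq2 size factor of the library, and a log2 fold change is the difference of Ern2-/- from WT with its standard error (SE). A gene was called when its Benjamini-Hochberg adjusted p from the DESeq2 Wald test was under 0.01. Counts of a gene fall both when fewer cells express it and when each cell holds less of its RNA, and bulk libraries of crypts cannot tell these apart. Nothing in the sources used here places the animals of a group in separate litters or cages, so that p-values measure only the spread between these libraries, part of which may be technical.

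Ern2 counts did not separate the genotype labels. Ern2, which lies on chromosome 7 from 122169893 to 122186239 (GRCm38), had 3366, 3009.6 and 2890.1 counts in COLONIZED-WT and 3171, 1659.8 and 2330.4 in the libraries labelled COLONIZED-Ern2-/-. Here the counts go against the labels in part. Replicate 1 labelled COLONIZED-Ern2-/- lay inside the WT range and replicates 2 and 3 lay below it. The log2 fold change was -0.37 (SE 0.21, adjusted p = 0.29). Without replicate 1 it was -0.63 (adjusted p = 0.0081), but this library was set apart by its Ern2 count, so that value is no test of Ern2. Without replicate 2 of the same label it was -0.17 (adjusted p = 0.79). Ern2 was called in 1 of the 6 fits that left out a library. Which part of the gene the allele removes was not given in the sources used here, so reads per gene cannot check the label of a single library, and results are therefore given for the libraries as labelled and, where replicate 1 mattered, also without it. Among the 10 protein-coding genes on either side of Ern2, 15 were tested and 0 were called, with log2 fold changes from -2.30 for Aqp8 to 0.23 and a median of -0.004. Ern1 had 653, 803 and 792 counts in COLONIZED-WT and 865, 661 and 613 in those labelled COLONIZED-Ern2-/- (log2 fold change -0.07, SE 0.18). Xbp1 had 4802, 4767 and 4992 and 5689.9, 4401 and 4003 in the same order (log2 fold change -0.05, SE 0.15), where counts per gene do not tell spliced from unspliced mRNA. The groups overlapped for both genes, and their fold changes reversed sign without replicate 3 labelled COLONIZED-Ern2-/-, to 0.03 for Ern1 and 0.06 for Xbp1. Of the 6 genes listed as sensors of the unfolded protein response or Xbp1, 0 were called, beside 1.37% of all tested genes, with a median of -0.06.

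The libraries looked epithelial throughout. Summed counts of 14 colon epithelial markers, Epcam and Cdh1 among them, ran from 256653 to 308044 in COLONIZED-WT and from 281713 to 314532 in those labelled COLONIZED-Ern2-/-. The sums for the other cell types were small: 246 to 404 for 25 immune markers in COLONIZED-WT and 251 to 368 in those labelled COLONIZED-Ern2-/-, 303 to 411 and 315 to 422 for 20 mesenchymal markers, and at most 0.984 for 7 red blood cell markers, of which 6 were at 0 in every library. The 11 endothelial markers summed to 221, 183 and 165 in COLONIZED-WT and 128, 92.5 and 110.4 in those labelled COLONIZED-Ern2-/-, without overlap, and its part in the results was not tested. The Y-linked genes were present in 2 of 3 libraries of either group. Library replicate 2 labelled COLONIZED-Ern2-/- stood farthest out on the first principal component, which held 46.8% of the variance of the 6 libraries, and replicate 1 of that label lay nearest to WT.

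Colonized crypts of the 2 genotype labels differed in 164 of 11960 genes tested, 1.37% of them. Of these, 62 (0.518%) were higher and 102 (0.853%) were lower in the libraries labelled COLONIZED-Ern2-/-, and 24 of the higher and 57 of the lower genes changed by over 2-fold. The 3 libraries of one label lay wholly above or below the other 3 in all 164 called genes, but such separation was common: it held for 15.6% of tested genes in the higher and 14.8% in the lower direction. An unadjusted p under 0.05 was reached by 2664 genes. With edgeR's quasi-likelihood test 1 gene, Ang4, had an adjusted p under 0.01, among 2786 with an unadjusted p under 0.05, and limma-voom likewise called 1 gene. All 164 genes had the same sign in edgeR. When library totals replaced the size factors, which moved the median of all genes by 0.043, the split became 206 higher and 89 lower. Without replicate 1 labelled COLONIZED-Ern2-/-, 656 of 12479 genes (5.26%) were called, 375 higher and 281 lower, and 149 of the 164 genes were among them. Leaving out each of the 6 libraries in turn left 49 genes called every time, 14 higher and 35 lower.

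Genes of ER stress held the strongest rises. Derl3, Chac1 and Trib3, together with the antimicrobial lectin gene Reg3b, were the called genes that rose most, and the chaperone genes Hspa5, Hsp90b1, Pdia4 and Creld2 rose less than 2-fold. Derl3, whose product helps to draw misfolded proteins out of the ER for degradation, had 35.6, 21.1 and 30.5 counts in COLONIZED-WT and 383, 264 and 199.7 in those labelled COLONIZED-Ern2-/-. Chac1, which encodes a glutathione-degrading enzyme induced through ATF4 and CHOP, had 63.2, 27.5 and 51.2 and 496, 257 and 237 in the same order. Trib3, a pseudokinase induced by the same factors, had 5.34, 1.83 and 4.92 and 172, 51.9 and 78.1. The lowest library labelled COLONIZED-Ern2-/- exceeded the highest COLONIZED-WT library severalfold in all 3 genes, and replicate 1 was the highest of all 6 libraries each time. Log2 fold changes were 3.28 for Derl3 (SE 0.31, adjusted p = 1.2e-21), 2.81 for Chac1 (SE 0.35, adjusted p = 3.5e-12) and 4.65 for Trib3 (SE 0.61, adjusted p = 3.3e-11), and each gene was called in all 6 fits that left out a library. Trib3 rests on few reads in COLONIZED-WT.

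The motifs known for these responses were looked for in RefSeq promoters of GRCm38.p6, which run from 250 bases before to 50 after the start of the gene. The ER stress element, CCAAT followed by 9 bases and CCACG, is bound by ATF6 and XBP1 together with NF-Y, and the ATF4 element was searched as TGATGNAA, both on either strand. The core of the unfolded protein response element, TGACGTGG, was searched likewise, and its last letters are the reverse complement of CCACG, so that it can overlap the ER stress element. The ER stress element was present in 0.137% of 27025 genes with a promoter entry and the ATF4 element in 4.51%. The stretches of the called ER genes that hold a match follow, chosen for holding a match among the called genes of the ER and ATF4 lists. Capitals mark the matched letters, read from the strand of the gene, so that a match on the opposite strand appears as its reverse complement, CGTGG followed by 9 bases and ATTGG, or TTNCATCA. The elements began 65 bases before the start in Hspa5, 212 and 107 before it in Hsp90b1, 126 in Creld2, 156 in Derl3 and 193 in Chac1, and 14 bases after it in Trib3.
Hspa5, chr2:34772005-34772063, plus strand: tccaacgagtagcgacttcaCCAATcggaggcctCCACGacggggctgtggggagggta
Hsp90b1, chr10:86705513-86705676, minus strand: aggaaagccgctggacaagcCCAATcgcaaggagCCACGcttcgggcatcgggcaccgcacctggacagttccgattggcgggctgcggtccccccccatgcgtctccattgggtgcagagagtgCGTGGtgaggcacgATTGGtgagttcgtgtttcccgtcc
Creld2, chr15:88819500-88819558, plus strand: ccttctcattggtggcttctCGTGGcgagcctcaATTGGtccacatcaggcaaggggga
Derl3, chr10:75893222-75893280, plus strand: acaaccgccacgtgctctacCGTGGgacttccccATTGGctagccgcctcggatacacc
Chac1, chr2:119351029-119351076, plus strand: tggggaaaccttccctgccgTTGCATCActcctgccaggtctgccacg
Trib3, chr2:152344037-152344066, minus strand: agcagcagattagctcaggtTTACATCAgc

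Of the chaperone list 24 members had a promoter entry, and 7 of them held the ER stress element, namely Hspa5, Hsp90b1, Pdia6, Calr, Canx, Dnajc3 and Creld2. Of these 7 genes 3 were called, all higher, beside 4 of all 24 members with an entry and 0.518% of all tested genes. In the degradation list Derl3 and Syvn1 held it, among 13 members with an entry. The ATF4 element was present in 9 of 31 members of the ATF4 and CHOP list, including Trib3 and Chac1. The letters of neither element, nor the core of the unfolded protein response element (held by 0.714% of genes), were found in the windows of Pdia4 and Atf5, the other called genes of these lists. A match is a description of the letters and says nothing of binding in these mice.

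The 4 called chaperone genes rose by less than 2-fold and by similar steps. Hspa5, which encodes BiP, the main chaperone of the ER, had 20466, 13811 and 19511 counts in COLONIZED-WT and 36022, 33249 and 24273 in those labelled COLONIZED-Ern2-/- (log2 fold change 0.80, SE 0.19, adjusted p = 0.0044). Hsp90b1, which encodes GRP94, the HSP90 of the ER, had 16567, 14962 and 18019 and 26383, 30417 and 20764 (log2 fold change 0.65, SE 0.16, adjusted p = 0.0058). Pdia4, a disulfide isomerase, had 5115, 4389 and 5167 and 9513, 8900.5 and 6424 (log2 fold change 0.76, SE 0.17, adjusted p = 0.00091). The groups did not overlap, with replicate 3 the lowest of the libraries labelled COLONIZED-Ern2-/- for each of these genes. Creld2, an ER-resident gene raised by stress, had 1703, 1221 and 1785 and 3304, 2840.1 and 2152 (log2 fold change 0.82, SE 0.20, adjusted p = 0.0044). Without replicate 1 labelled COLONIZED-Ern2-/-, Pdia4 was still called (adjusted p = 0.0049), while Hspa5, Hsp90b1 and Creld2 were not, at 0.015, 0.011 and 0.016. Of the 6 fits that left out a library, Pdia4 was called in 3, Hspa5 and Creld2 in 2 each and Hsp90b1 in 1.

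Over the whole list of ER chaperones and folding enzymes, 4 of 29 tested members were called higher and 0 lower, where 0.518 and 0.853% of all tested genes were, with a median log2 fold change of 0.27 against -0.003 over all genes. A further 1 of 21 genes of ER-associated degradation, Derl3, and 3 of 35 genes of the ATF4 and CHOP response were called, all higher, to be read beside the same shares, with medians of 0.10 and 0.16. The third gene of the latter was Atf5, itself a stress-induced transcription factor, with 346, 277 and 346 counts in COLONIZED-WT and 536, 522 and 505 in those labelled COLONIZED-Ern2-/- (log2 fold change 0.69, SE 0.15, adjusted p = 0.0011), called in 3 of the 6 fits that left out a library. Ddit3, which encodes CHOP, had 202, 181 and 145 and 329, 247 and 299 without overlap but was not called (log2 fold change 0.73, SE 0.20, adjusted p = 0.017). Neither were Atf3, a stress-induced factor (adjusted p = 0.012), the BiP cochaperone gene Dnajb9 (0.011), Sdf2l1 (0.041) or Herpud1, which encodes a membrane protein of ER-associated degradation (0.18), with log2 fold changes of 1.14, 0.80, 0.60 and 0.47. Without replicate 1 labelled COLONIZED-Ern2-/- the chaperone list had 2 higher and 3 lower calls, with a median of 0.25.

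**Figure D1:**
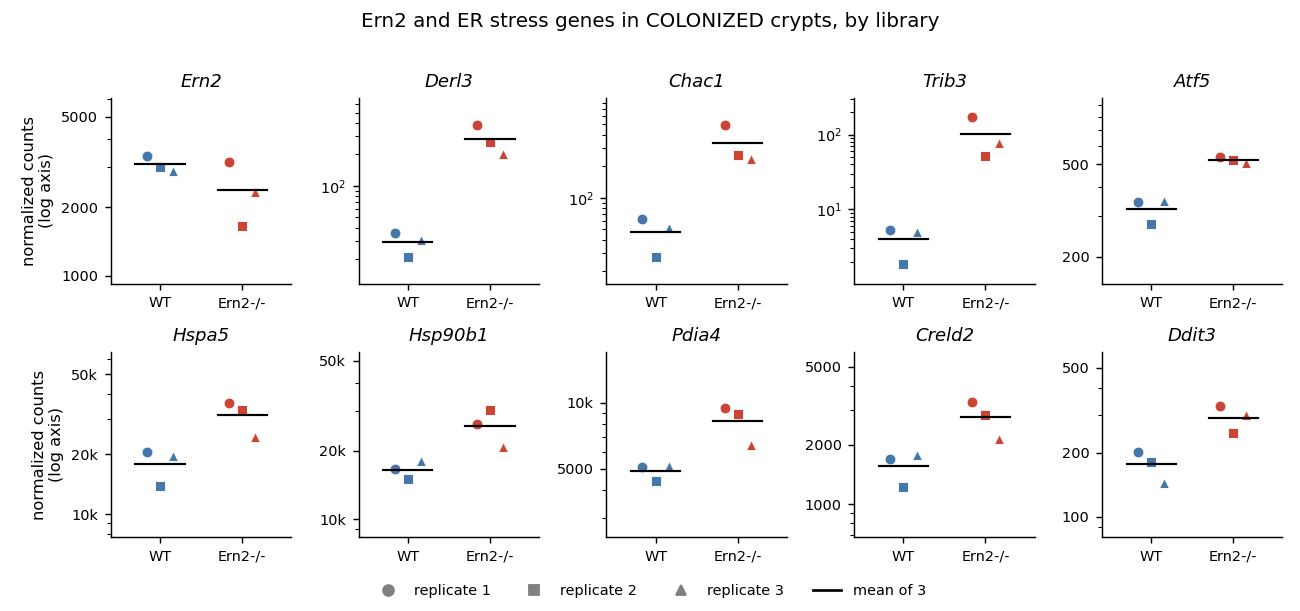
Normalized counts (log axis) of Ern2 and 9 genes of ER stress in each of the 6 libraries, one panel per gene, with a point for each library and the group mean as a line. The Derl3, Chac1 and Trib3 points of the libraries labelled COLONIZED-Ern2-/- lie well above those of COLONIZED-WT, the chaperone genes are separated by less, and Ern2 overlaps.

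The heat shock response, which serves cytosolic rather than ER folding, had 1 called gene of 16, beside 0.518% of all tested genes called higher. This was Hspa4l, with 957, 925 and 1047 counts in COLONIZED-WT and 1705, 2560.2 and 1294 in those labelled COLONIZED-Ern2-/- (log2 fold change 0.92, SE 0.22, adjusted p = 0.0043, called in 2 of the 6 fits that left out a library). Another list held 43 XBP1 targets and secretory genes that respond to ERN2 in a human cell line. Of these 40 were tested, 1 was called (Pdia4, higher), beside the same 0.518%, and the median was -0.14. For other machinery of the secretory pathway, beside 1.37% of all tested genes called, the counts were as follows. In the translocon, signal peptidase and oligosaccharyltransferase list 0 of 35 genes were called, and in the list of COPI and COPII vesicle transport 1 of 45, Copz2, a COPI coat subunit, with 309.9, 282 and 319.9 and 207, 92.5 and 135 counts (log2 fold change -1.06, SE 0.27, adjusted p = 0.0068, called in 1 of those 6 fits).

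Goblet cell products were among the strongest falls. Of the 25 genes listed for the mucus layer 21 were tested, 7 were called lower and 0 higher (0.853 and 0.518% of all tested genes), the median log2 fold change was -0.82, and 20 of the 21 fold changes were negative. Ang4, a secreted ribonuclease with antibacterial activity, had 6232, 4019 and 9009 counts in COLONIZED-WT and 308, 261 and 401 in those labelled COLONIZED-Ern2-/-. Retnlb, which encodes RELMβ, a goblet cell protein that acts on gram-negative bacteria and is induced by colonization, had 11735, 5549.9 and 10201 and 597, 94.8 and 564. Itln1, the lectin intelectin-1, had 363, 183 and 356 and 40.5, 13.5 and 34.7. In each the highest library labelled COLONIZED-Ern2-/- was at a small fraction of the lowest COLONIZED-WT library. Log2 fold changes were -4.31 for Ang4 (SE 0.27, adjusted p = 1.7e-55), -4.45 for Retnlb (SE 0.78, adjusted p = 5.7e-06) and -3.34 for Itln1 (SE 0.37, adjusted p = 1.2e-15), and no call of the 3 was lost when any of the 6 libraries was omitted. Ang4 was also called by edgeR (adjusted p = 0.0074) and limma-voom (0.0057). Its paralogue Ang also fell, with 717, 776 and 796 counts in COLONIZED-WT and 416, 371 and 508 in those labelled COLONIZED-Ern2-/- (log2 fold change -0.82, SE 0.16), and reads may be shared between such near copies.

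Clca3, a mucus protein named Clca1 in later annotation, had 86131, 107193 and 131910.0 counts in COLONIZED-WT and 37108, 16779 and 26426 in those labelled COLONIZED-Ern2-/- (log2 fold change -2.02, SE 0.26, adjusted p = 4.4e-12). Spink4, a peptide of goblet cell granules, had 25346, 20037 and 27506 and 11068, 3888 and 9029 (log2 fold change -1.60, SE 0.30, adjusted p = 2.1e-05). Mptx1, a secreted pentraxin that was named after its values were seen, had 87342, 114343 and 117820.0 and 32697, 9724 and 35328 (log2 fold change -2.04, SE 0.47, adjusted p = 0.0019). Replicate 2 was the lowest library for all 3 genes and the groups did not overlap. With libraries left out singly, Clca3 was called in 6 and Spink4 and Mptx1 in 3 of 6 fits. Muc6, a gel-forming mucin more typical of gastric glands, was sparse, with 36.5, 28.4 and 73.8 and 4.4, 5.64 and 2.48 counts (log2 fold change -3.45, SE 0.64, adjusted p = 2.5e-05, called in 4 of 6 such fits).

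The main structural genes of mucus, Muc2 and Fcgbp, were not called with all 6 libraries and were called without replicate 1 labelled COLONIZED-Ern2-/-. Muc2, the gel-forming mucin of the colon, had 170784, 169850.0 and 209274 counts in COLONIZED-WT and 147296, 91618 and 73375 in those labelled COLONIZED-Ern2-/- (log2 fold change -0.82, SE 0.23, adjusted p = 0.018), and without replicate 1 its log2 fold change was -1.15 (adjusted p = 5.3e-10). Fcgbp, which is cross-linked to the MUC2 network, had 62869, 80958 and 90772 and 65084, 26041 and 31918 (log2 fold change -0.93, SE 0.45, adjusted p = 0.2), and -1.43 without replicate 1 (adjusted p = 5.9e-12). Replicate 1 lay below all COLONIZED-WT libraries for Muc2 and within their range for Fcgbp. It was set apart by its Ern2 count, and Ern2 is itself in the goblet cell signature. The fit without it is therefore no independent check of goblet cell genes. Zg16, a lectin that binds gram-positive bacteria, had 4118, 23918 and 12839 and 37091, 13558 and 17629 (log2 fold change 0.74, SE 0.73), and the peptide gene Tff3 had 3240.4, 8107 and 6552 and 6238, 2895 and 4445 (log2 fold change -0.40, SE 0.46), both with overlap between the groups. Over the mucus list without replicate 1, 12 of 21 genes were called lower and the median was -1.19, and this and the other list counts without replicate 1 come from the fit that called 5.26% of all genes.

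Among the factors that direct the secretory lineage, Spdef and Foxa3 fell. Spdef, which drives goblet cell maturation, had 3951, 2990.3 and 3191 counts in COLONIZED-WT and 2159, 1873 and 1318 in those labelled COLONIZED-Ern2-/- (log2 fold change -0.92, SE 0.20, adjusted p = 0.00045). Foxa3, another goblet cell factor, had 1278, 1279 and 1162 and 964, 732 and 704 (log2 fold change -0.63, SE 0.16, adjusted p = 0.0062). These were the called members among 18 secretory lineage factors, both lower without overlap, where 0.853% of all tested genes were called lower and 14.8% lay so without overlap, and the list median was -0.34. Spdef was called in 5 and Foxa3 in 1 of the 6 fits that left out a library. Atoh1, which commits cells to the secretory lineage, had 1531, 1808 and 1847 and 1744, 1151 and 1068 with overlap (log2 fold change -0.39, SE 0.20, adjusted p = 0.23). Gfi1, which acts after Atoh1, had 232, 429 and 300.2 and 184, 122 and 191 without overlap and was not called (log2 fold change -0.95, SE 0.27, adjusted p = 0.018). Without replicate 1, 6 of the 18 factors were called lower.

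**Figure D2:**
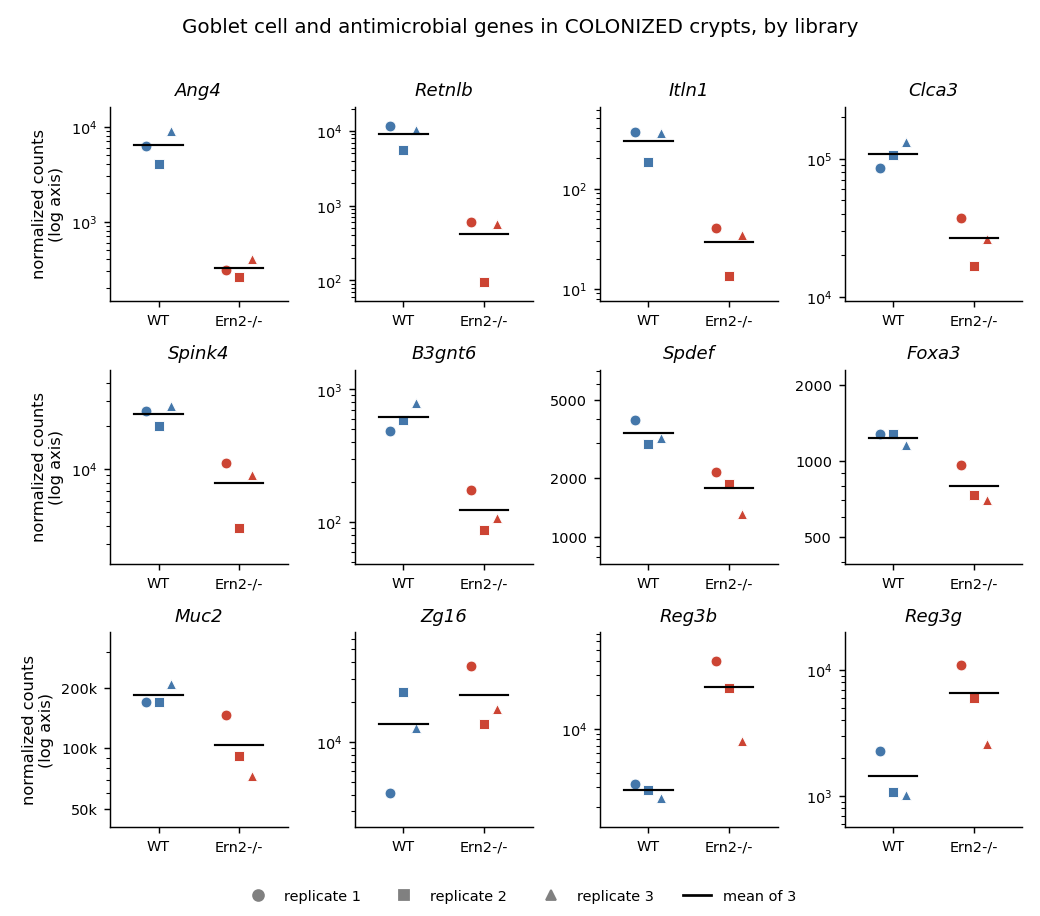
Normalized counts (log axis) of 12 goblet cell, antimicrobial and lineage genes in each of the 6 libraries, one panel per gene, with a point for each library and the group mean as a line. Ang4, Retnlb, Itln1, Clca3, Spink4, B3gnt6, Spdef and Foxa3 are lower in all 3 libraries labelled COLONIZED-Ern2-/-, Reg3b and Reg3g are higher, and Zg16 overlaps.

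Mucins are heavily O-glycosylated, and 2 of 37 tested enzymes of this process were called, both lower, beside 0.853% of all tested genes. B3gnt6, the enzyme that makes core 3 O-glycans, had 489, 586 and 783 counts in COLONIZED-WT and 176, 86.9 and 108 in those labelled COLONIZED-Ern2-/- (log2 fold change -2.32, SE 0.27, adjusted p = 4.5e-14). St3gal4, a sialyltransferase, had 1811, 2714 and 2751 and 972, 478 and 571 (log2 fold change -1.85, SE 0.26, adjusted p = 1e-09). Replicate 1 was the highest library labelled COLONIZED-Ern2-/- for both and still lay below every COLONIZED-WT library. The median of the list was -0.06, and 8 members were called lower without replicate 1, with a median of -0.17.

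Antimicrobial genes did not move as one. Among 14 tested of 32 listed, 5 were called lower, Ang4, Retnlb, Itln1, Ang and Mptx1, of which 4 also stand in the mucus list, and 1 was called higher, beside 0.853 and 0.518% of all tested genes. This was Reg3b, an enterocyte lectin induced by microbes and epithelial injury, with 3218, 2852 and 2382 counts in COLONIZED-WT and 40136, 23075 and 7819.7 in those labelled COLONIZED-Ern2-/- (log2 fold change 3.07, SE 0.58, adjusted p = 3.6e-05). Its neighbour Reg3g, which acts on gram-positive bacteria, had 2267, 1079 and 1026 and 11016, 5977 and 2579.7 (log2 fold change 2.16, SE 0.67, adjusted p = 0.034) and was not called. Both ran in the same order over the libraries labelled COLONIZED-Ern2-/-, highest in replicate 1 and lowest in replicate 3, and these similar genes may share reads. Of the acute phase and oxidative defence list 3 of 15 genes were called, all lower, beside the same 0.853%: the glutathione peroxidase gene Gpx2 (log2 fold change -0.75, SE 0.16, adjusted p = 0.00033) and the gasdermin genes Gsdmc2 (-0.98, SE 0.22, adjusted p = 0.001) and Gsdmc4 (-0.78, SE 0.19, adjusted p = 0.0043), the latter near copies of each other. Gpx2 had 17762, 14540.2 and 13546 and 10619, 8204 and 8484 counts. Gsdmc4 was not called without replicate 1 (adjusted p = 0.013), and with libraries left out singly Gpx2 was called in 4, Gsdmc2 in 3 and Gsdmc4 in 2 of 6 fits.

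The signature of goblet cells from earlier single-cell work, which the study used, held 400 genes, of which 398 were tested. In it 5 were called higher and 9 lower, its median was -0.11, and 28 members lay above and 81 below without overlap, where 0.518 and 0.853% of all tested genes were called in these directions and 15.6 and 14.8% lay so without overlap. The lower members included Clca3, Spink4, Spdef, Foxa3, Ang and Cgref1, a secreted calcium-binding protein with 2851, 2281 and 2989 and 1693, 1084 and 1131 counts (log2 fold change -1.05, SE 0.20, adjusted p = 2.7e-05). Of the 5 higher members, 4 were the ER chaperone genes Hspa5, Hsp90b1, Pdia4 and Creld2. Without replicate 1 the counts were 3 and 84, with a median of -0.21, in a fit that called 5.26% of all genes against 1.37% with all 6 libraries.

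Genes of the crypt base and of Wnt signalling were lower in part. In that list 5 of 28 tested genes were called lower and 0 higher, where 0.853 and 0.518% of all tested genes were, with a median of -0.38. Ephb3, a receptor that positions cells along the crypt, had 1761, 1398 and 1363 counts in COLONIZED-WT and 863, 600.3 and 654 in those labelled COLONIZED-Ern2-/- (log2 fold change -1.09, SE 0.18, adjusted p = 1e-06). Ascl2, a transcription factor of stem cells, had 244, 147 and 169 and 59.8, 98.2 and 74.4 (log2 fold change -1.27, SE 0.28, adjusted p = 0.0011). Hopx, a homeodomain protein, had 1348, 1289 and 1353 and 807, 590.1 and 791 (log2 fold change -0.87, SE 0.15, adjusted p = 8e-06). All 3 genes were separated without overlap, and with libraries left out singly Ephb3 and Hopx were called in 6 of 6 fits and Ascl2 in 3. The others were Rnf43, a ubiquitin ligase that restrains Wnt receptors, at -0.66 (SE 0.14, adjusted p = 0.00037), and the growth regulator Myc at -0.63 (SE 0.16, adjusted p = 0.0075), whose call was lost without replicate 1 (adjusted p = 0.018). They were called in 4 and 1 of those fits. Lgr5, the receptor that marks stem cells, had 391, 356 and 444 and 194, 310.3 and 320.0 (log2 fold change -0.54, SE 0.22, adjusted p = 0.12), and the Wnt target Axin2 had 1443, 1256 and 1032 and 865, 852 and 846 (log2 fold change -0.54, SE 0.15, adjusted p = 0.018), neither of them called although the groups did not overlap. The stem cell signature had 10 lower and 1 higher calls among 113, beside the same shares over all genes, with a median of -0.25.

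No gene of the proliferation lists was called, where 1.37% of all tested genes were. The proliferation marker Mki67 had 8571, 7761 and 8698 and 9658, 11241 and 8647 counts (log2 fold change 0.24, SE 0.13, adjusted p = 0.27), and in the lists of mitosis and of DNA replication 0 of 30 and 0 of 40 genes were called, with medians of 0.20 and -0.06. In the mitosis list 12 genes lay higher without overlap and 0 lower, beside 15.6 and 14.8% of all tested genes.

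A few absorptive cell genes rose. The enterocyte signature had 5 higher and 2 lower calls among 437, with a median of 0.10, where 0.518% of all tested genes were called higher. Without overlap, 67 members lay higher and 23 lower, beside 15.6 and 14.8% of all tested genes. Sis, which encodes sucrase-isomaltase, a brush border enzyme of the small intestine, had 62.3, 51.3 and 65 counts in COLONIZED-WT and 95.9, 369 and 314 in those labelled COLONIZED-Ern2-/- (log2 fold change 2.12, SE 0.41, adjusted p = 4.5e-05). Gda, guanine deaminase, had 610.0, 826 and 793 and 1566, 2484 and 1488 (log2 fold change 1.31, SE 0.22, adjusted p = 1e-06). Slc13a1, a sulfate cotransporter, had 85.5, 124 and 94.5 and 211, 327 and 265 (log2 fold change 1.40, SE 0.24, adjusted p = 3.6e-06). Replicate 1 was nearest to WT for Sis and Slc13a1, and replicate 2 was the highest library for all 3. Other genes with large rises were Dhrs9, a dehydrogenase of retinoids and steroids, with 24.9, 55.9 and 36.4 and 159, 256 and 83.1 counts (log2 fold change 2.09, SE 0.42, adjusted p = 0.00013), and Gdpd3, a lysophospholipase D, with 66.8, 59.6 and 66 and 120.5, 438 and 215 (log2 fold change 2.00, SE 0.39, adjusted p = 6.9e-05). With libraries left out singly, Sis was called in 5, Dhrs9 in 4 and Gda, Slc13a1 and Gdpd3 in 6 of 6 fits. Of the surface colonocyte genes 0 of 38 tested were called, beside 1.37% of all tested genes in either direction. Car4, carbonic anhydrase 4, had 1157, 2103 and 2184 and 1001, 1741 and 1549 (log2 fold change -0.34, SE 0.26), and the water channel gene Aqp8 had 116, 399 and 2083 and 103, 165 and 260.4 (log2 fold change -2.30, SE 1.09), with a wide spread in COLONIZED-WT. In the enteroendocrine and tuft marker lists 0 of 22 and 0 of 20 genes were called, and Chga and Dclk1, which mark these cells, had log2 fold changes of 0.71 (SE 0.55) and 0.40 (SE 0.29).

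Several of the largest falls were in genes outside the goblet cell lists. Pla2g4c, a phospholipase A2, had 4330.4, 1374 and 2098 counts in COLONIZED-WT and 109.9, 302 and 109 in those labelled COLONIZED-Ern2-/- (log2 fold change -3.90, SE 0.68, adjusted p = 4.3e-06). Pnliprp2, a lipase of the pancreatic lipase family, had 451, 103.6 and 298 and 18.5, 16.9 and 9.92 (log2 fold change -4.22, SE 0.48, adjusted p = 3.2e-15). Replicate 1 of COLONIZED-WT was the highest library for both, and the groups were far apart. Clps, the colipase gene, had 499, 351 and 481 and 116, 39.5 and 84.3 (log2 fold change -2.46, SE 0.32, adjusted p = 8.5e-12). Pnliprp2 and Clps were the called members among 4 tested acinar genes, both lower, beside 0.853% of all tested genes. The 18 acinar genes in the table summed to 4883, 5321 and 4183 and 5713, 2161 and 3650.0 counts, with overlap between the groups. Of these, 7 were at 0 in every library. Pla2g16, another lipid-cleaving enzyme, fell as well (log2 fold change -0.88, SE 0.17, adjusted p = 3.2e-05).

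The noncoding RNAs Meg3 and Rian, maternally expressed from one imprinted region of chromosome 12, both fell. Meg3, from 109540996 to 109571729 (GRCm38), had 1085, 519.6 and 535 counts in COLONIZED-WT and 109, 74.5 and 54.6 in those labelled COLONIZED-Ern2-/- (log2 fold change -3.16, SE 0.32, adjusted p = 7.1e-19). Rian, from 109603945 to 109661716, had 115, 162 and 244 and 64.2, 30.5 and 31 (log2 fold change -2.03, SE 0.38, adjusted p = 2.1e-05). They were the 2 called among 7 tested imprinted transcripts, both lower, beside 0.853% of all tested genes. In the extracellular matrix list Fn1, fibronectin, had 535, 116 and 220.5 and 15, 46.3 and 28.5 (log2 fold change -3.29, SE 0.76, adjusted p = 0.0018), and the laminin gene Lamb1 had 41, 22.9 and 107 and 7.04, 7.9 and 3.72 (log2 fold change -3.18, SE 0.66, adjusted p = 0.00024). The laminin gene Lama3 went the other way, with 44.5, 70.6 and 49.2 and 124, 206 and 124 (log2 fold change 1.47, SE 0.31, adjusted p = 0.00033). Fn1 was called in 4, Lamb1 in 5 and Lama3 in 3 of the 6 fits that left out a library. Of the markers of other cell types given above, the mesenchymal sums overlapped between the groups. The endothelial sums were lower without overlap in those labelled COLONIZED-Ern2-/-. So were both tested endothelial genes, where 14.8% of all tested genes lay so. The part of these markers in these falls was not tested.

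Among 43 tested interferon-stimulated genes 1 was called higher and 1 lower, and shares of 0.518% and 0.853% were called in these directions over all genes. The antiviral gene Ifit1 was called higher, with 38.3, 110.0 and 54.1 counts in COLONIZED-WT and 169, 231 and 158 in those labelled COLONIZED-Ern2-/- (log2 fold change 1.46, SE 0.36, adjusted p = 0.0049). Mx1, an antiviral GTPase, was called lower, with 181, 113 and 179 and 51, 62.1 and 40.9 (log2 fold change -1.61, SE 0.29, adjusted p = 1.1e-05). Ifit1 was called in 2 and Mx1 in 6 of the 6 fits that left out a library. The list had a median of 0.23. Gm14446 and 2010002M12Rik, which RefSeq names as neighbouring Ifit-like genes, rose among the strongest, with log2 fold changes of 1.73 (SE 0.31, adjusted p = 7.9e-06) and 1.68 (SE 0.38, adjusted p = 0.0012), though reads of such similar genes cannot be assigned with certainty. Gm14446 had 109, 260.3 and 132 and 602, 641 and 415 counts and was called in 6 of the 6 fits, 2010002M12Rik in 2. Ifitm3, an interferon-induced membrane protein that is also part of the stem cell signature, fell (log2 fold change -1.06, SE 0.21, adjusted p = 0.00016, 5 of 6 fits). The zinc finger gene Zfp820 had 51.6, 35.7 and 50.2 and 65.1, 269.7 and 130.2 (log2 fold change 1.75, SE 0.44, adjusted p = 0.0066), where replicate 2 carried most of the rise, and it was called in 1 of the 6 fits that left out a library. The sums of immune cell markers overlapped between the groups, as given above.

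Cytosolic ribosomal protein genes were nearly all lower, and few of them were called. Of 80 tested, 4 were called lower and 0 higher (0.853 and 0.518% of all tested genes), but 79 of 80 fold changes were negative, 75 lay lower without overlap and 0 higher (14.8 and 15.6% of all tested genes), and the median was -0.47. These genes took 4.96, 4.25 and 4.1% of counts in COLONIZED-WT and 3.58, 2.58 and 3.68% in those labelled COLONIZED-Ern2-/-. Among the called genes were Rpl28 (log2 fold change -0.59, SE 0.15, adjusted p = 0.0065), Rpl41 (-0.45, SE 0.11, adjusted p = 0.0065) and Rps28 (-0.69, SE 0.18, adjusted p = 0.0077), each called in 1 or 2 of the 6 fits that left out a library. With library totals as scaling 0 of the ribosomal genes were called, and 20 were called without replicate 1 labelled COLONIZED-Ern2-/-. Many of these genes have processed pseudogenes, with which reads can be shared. Nuclear genes of oxidative phosphorylation had 0 calls among 78 and a median of -0.19, with 37 lower without overlap and 1 higher, beside the same 14.8 and 15.6%. The mitochondrial ribosomal proteins had 0 calls among 77 and a median of -0.10, and the aminoacyl-tRNA synthetases 0 among 20 with a median of -0.002.

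**Figure D3:**
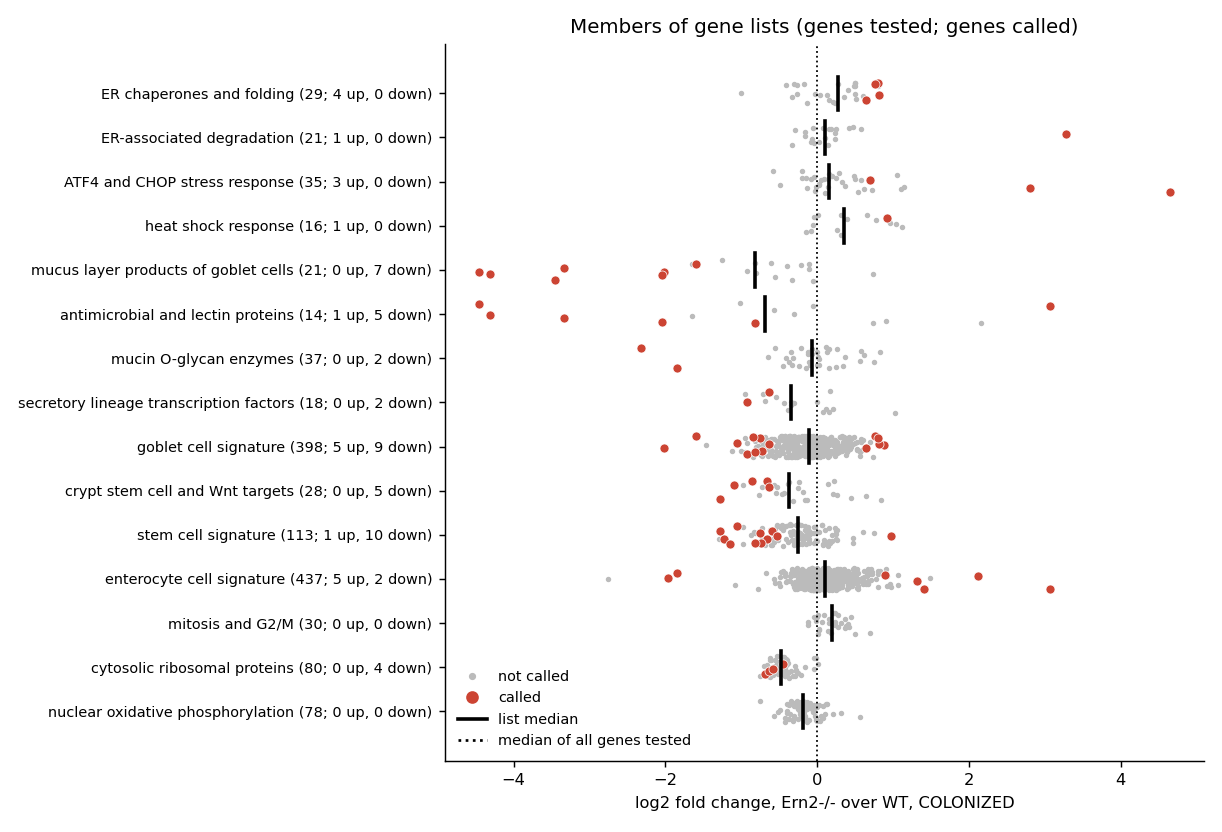
Log2 fold changes of Ern2-/- from WT after colonization for the tested members of 15 gene lists, a point for each gene, called genes in red and the median of each list as a bar. The mucus layer list is centred at -0.82 and the ribosomal protein list at -0.47 with few called genes, while the ER lists hold their called genes on the higher side.

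The transcript Rn45s, the 45S precursor of ribosomal RNA, was examined because libraries of mRNA should hold little of it, and was named after its values were seen. It had 282471, 534543 and 224266 counts in COLONIZED-WT and 59212, 86514 and 73149 in those labelled COLONIZED-Ern2-/- (log2 fold change -2.25, SE 0.28, adjusted p = 5.9e-13), without overlap. Reads of this transcript depend on how RNA was prepared as well as on the cells, and its part in the other differences was not tested.

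Fold changes also followed the base composition of the genes, which moves with several of the groups above. Of the 11960 genes 11141 had a transcript length and GC content from GENCODE M21. Genes under 45% GC had a median log2 fold change of 0.32, and 90.7% of 1995 were positive. The median was 0.09 from 45 to 50% GC, -0.07 from 50 to 55% and -0.16 at 55% and above, where 20.9% of 3082 were positive. Across genes, which are not independent replicates, Spearman's rho between GC content and fold change was -0.57. Genes with transcripts under 1 kb had a median of -0.12 and those of 4 kb and above a median of 0.11. Relative to the mean of COLONIZED-WT, the low GC genes lay at 0.18, 0.54 and 0.24 in replicates 1, 2 and 3 labelled COLONIZED-Ern2-/- and at -0.07, -0.007 and 0.08 in those of COLONIZED-WT. Derl3 had 57.3% GC, and Hspa5 and Ang4 had 46.4%. Single genes are given below after a smooth of GC content was taken out. The cause of the trend with GC content was not tested.

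When a smooth of GC content was taken out of each library, a step added after seeing these data, 142 genes were called, 51 higher and 91 lower, of which 111 were among the 164. Derl3, Chac1, Trib3, Ang4, Retnlb, Itln1, B3gnt6 and St3gal4 were still called, with log2 fold changes of 3.44, 2.96, 4.79, -4.44, -4.57, -3.30, -2.19 and -1.81. Hspa5 and Hsp90b1 were no longer called (0.66 and 0.39, adjusted p = 0.031 and 0.1), and Ddit3, Atf3 and Sdf2l1 were (adjusted p = 0.00048, 0.0083 and 0.0079), so that the chaperone list had 3 and the ATF4 and CHOP list 5 calls, all higher. The ribosomal list kept a median of -0.46 with 3 calls and the mucus list a median of -0.77 with 7. The median of the mitosis list went from 0.20 to 0.06. Foxa3, Ascl2, Myc, Copz2, Ifit1, Zfp820, Rpl28 and Rpl41 lost their calls.

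**Figure D4:**
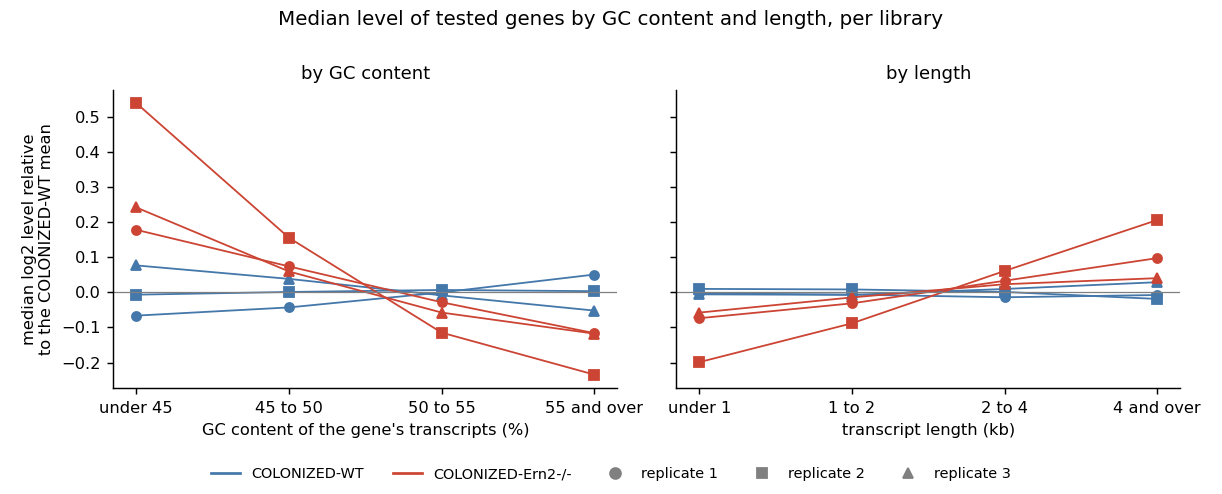
Median log2 level of genes in bins of GC content (percent) and transcript length (kb), for each of the 6 libraries relative to the COLONIZED-WT mean. The libraries labelled COLONIZED-Ern2-/- lie above 0 for low GC and long genes and below it for high GC and short genes, most so in replicate 2.

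The same genotype difference was set beside that in GF and CONV mice, fitted on their own libraries, which share none with the COLONIZED groups. With size factors over all 18 libraries, Ern2 had 2573, 1909 and 2439 counts in GF-WT. The libraries labelled GF-Ern2-/- had 2877, 386 and 3336, so that replicates 1 and 3 lay above every GF-WT library. In CONV mice the counts were 3100, 3100 and 2089 in WT and 998, 1622 and 1487 in those labelled Ern2-/-, without overlap. Here too reads per gene cannot check a label, and the differences are given for the libraries as labelled. Of the 164 called genes, 2 were called in GF mice, B3gnt6 and Rn45s, where 6 of 17168 genes were called in all, and 59 were called in CONV mice, where 383 of 12625 were called, each of these in the same direction as after colonization. Ang4 had log2 fold changes of -1.48 (SE 0.98) in GF, -4.31 after colonization and -3.17 (SE 0.66) in CONV mice. For Retnlb they were -1.10 (SE 0.34), -4.45 and -4.30 (SE 0.54), and for Clca3 -0.77 (SE 0.43), -2.02 and -3.83 (SE 0.76). For B3gnt6 they were -2.31 (SE 0.43), -2.32 and -2.46 (SE 0.49), close together in all 3 states. Derl3 was called in CONV mice as well, at 2.85 (SE 0.59, adjusted p = 0.00013), and stood at 1.85 (SE 0.63, adjusted p = 1) in GF mice. Chac1 was at 0.30 (SE 0.99) in GF and 0.56 (SE 0.52) in CONV mice, and Trib3 at 1.12 (SE 0.98) and 1.75 (SE 0.68), none of them called. Hspa5 was at 0.54 (SE 0.25) in GF and -0.13 (SE 0.57) in CONV mice.

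Whether the genotype difference itself changed with the microbial state was tested by an interaction term over 12 libraries. Ern2 counts of the libraries labelled GF-Ern2-/-, given above, went against the label in part. Terms are therefore given for the libraries as labelled. Against GF mice 5 of 17884 genes (0.0280%) were called, all with a lower difference after colonization, among them Pla2g4c, Meg3, Pnliprp2 and Itln1. For Itln1 the term was -3.45 (SE 0.73, adjusted p = 0.0075), for Pla2g4c -4.97 (SE 0.96, adjusted p = 0.0023). The rises of Derl3, Chac1 and Trib3 were not shown to depend on colonization, with terms of 1.43, 2.52 and 3.54 (SE 0.59, 0.91 and 1.14, adjusted p of 0.84 for each), nor were the falls of Ang4 (-2.82, SE 1.11, adjusted p = 0.84) and Retnlb (-3.35, SE 0.88, adjusted p = 0.31). With edgeR 0 genes were called and 947 had an unadjusted p under 0.05, against 1030 with DESeq2. Against CONV mice 37 of 12647 genes (0.293%) were called, 20 with a positive and 17 with a negative term. Gfi1 had a term of 2.02 (SE 0.46, adjusted p = 0.0066), with a smaller fall after colonization than the -2.97 of CONV mice, and Car4 one of -2.20 (SE 0.49, adjusted p = 0.0053). Chac1 did not pass (2.24, SE 0.65, adjusted p = 0.044), and edgeR called 0 genes here too, with 1655 at an unadjusted p under 0.05 against 1958. The counts of calls varied with the library left out. Against CONV the count fell to 0 without replicate 3 of COLONIZED-WT or replicate 1 labelled COLONIZED-Ern2-/-, and rose to 1205 without replicate 3 of CONV-WT. Against GF it fell to 0 without replicate 3 labelled COLONIZED-Ern2-/-.

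**Figure D5:**
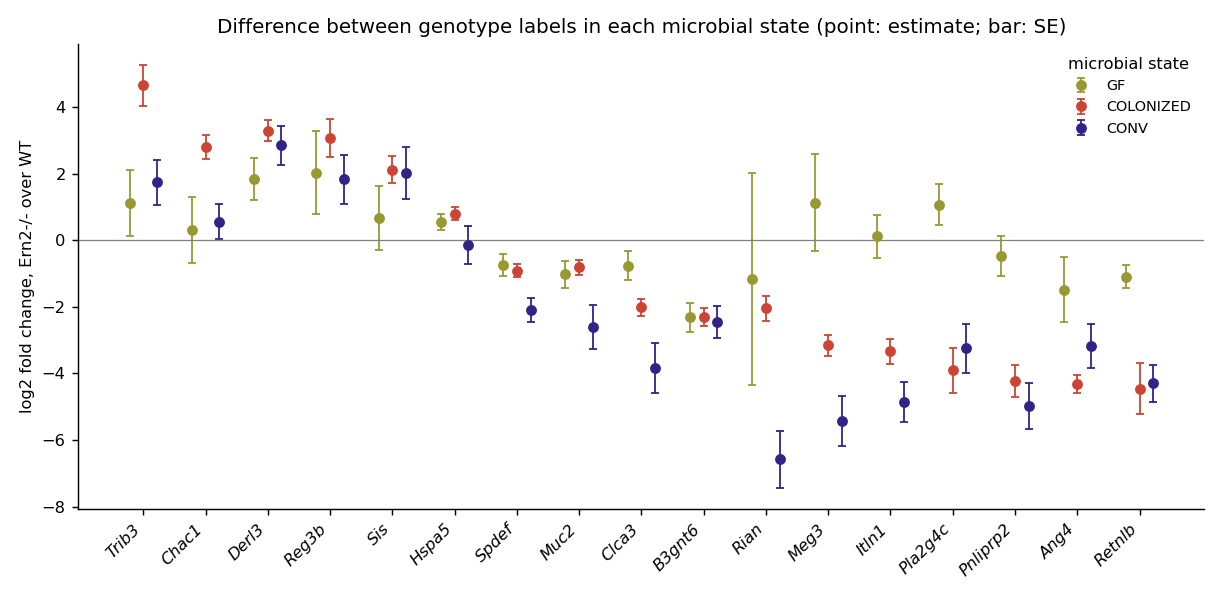
Log2 fold changes of Ern2-/- from WT, with SE as bars, in GF, COLONIZED and CONV mice for 17 genes. Chac1 and Trib3 have their largest values in COLONIZED mice, B3gnt6 has like values in all 3 states, and Clca3, Muc2 and Spdef have their lowest values in CONV mice.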

How the data were processed

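RNA of colon crypts was sequenced from 18 mice as stranded, poly(A)-selected libraries read in single ends of 75 cycles, per the study's methods. The authors aligned the reads with STAR to mm10 and deposited raw counts per gene symbol, and their methods name DESeq2. The strand setting, annotation and versions were not given in the sources used here. The table held 24047 symbols, of which 27 had been turned into dates and 2 occurred more than once.

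The 6 COLONIZED libraries were fitted alone with DESeq2 1.42.0 in R 4.3.3 (Wald test, without shrinkage, with the size factors, the independent filter and the Cook's distance filter at their defaults), which left 11960 genes tested. The default target of the independent filter was used, and a first run had set it to 0.01. Genotype by state interactions were fitted on 12 libraries each, which share the COLONIZED groups. Alternatives were edgeR 4.0.16, limma-voom 3.58.1, other scalings and filters, covariates, the replicate number as a block, each library left out in turn, and a smooth of GC content chosen after seeing the data. The fits were tested on simulated data. Depth, from 14046576 to 20430725 counts, limits precision for genes of few counts.

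The members and gene lists were chosen with earlier results of these data known. Named genes were Ern2, Ern1 and Xbp1, the 10 called genes with the largest rise and the 10 with the largest fall among those with a mean of at least 20 normalized counts and no overlap, up to 4 called members of each of 52 lists by adjusted p, and a set of goblet, ER stress, stem and antimicrobial genes named whatever their result. Some of the genes so named are not reported here. Mptx1, Rn45s and Ffar2, and the single members given as markers or neighbours, were added after their values were seen. Promoters, gene positions and the names of Gm14446 and 2010002M12Rik came from RefSeq (GRCm38.p6), where 18 of 20 genes looked for had a promoter entry, and transcript GC content and length from GENCODE M21.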

Additional observations from a re-analysis of the deposited data

Results flagged for a closer look

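A difference between groups set apart 9 genes, in which the genotype difference after colonization was not the same as in another microbial state by the interaction term of DESeq2, adjusted over all genes tested. Against germ-free mice the term was -3.45 for Itln1 (adjusted p = 0.0075), -3.74 for Pnliprp2 (0.0066), -4.97 for Pla2g4c (0.0023) and -4.30 for Meg3 (0.0028). Each of these genes fell after colonization. In germ-free mice the log2 fold changes of libraries labelled Ern2-/- from WT were 0.12 (SE 0.64), -0.48 (SE 0.60), 1.07 (SE 0.62) and 1.13 (SE 1.45) in the same order. Ern2 counts of replicates 1 and 3 labelled GF-Ern2-/- lay above every GF-WT library, as given above. With 1 of the 12 libraries left out at a time, they were called in 3, 3, 7 and 4 of 12 fits, and with edgeR none had an adjusted p under 0.01.

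Against conventional mice the term was 2.02 for Gfi1 (adjusted p = 0.0066), 4.56 for Rian (0.0046), 1.63 for Ffar2 (0.0024), -2.20 for Car4 (0.0053) and -2.02 for Rn45s (0.0092). Gfi1 had log2 fold changes of -0.95 after colonization and -2.97 in conventional mice. Rian, which fell by more in conventional mice, had -2.03 and -6.58. Ffar2, a receptor for short-chain fatty acids that was named after its values were seen, had 1028, 713 and 769 counts in COLONIZED-WT and 581, 423 and 439 in those labelled COLONIZED-Ern2-/- (log2 fold change -0.80) and -2.42 in conventional mice. Car4 had -0.34 and 1.86, and Rn45s had -2.25 and -0.23. They were called in 4, 5, 7, 4 and 2 of the 12 fits that left out a library, in the order of the terms above, and none had an adjusted p under 0.01 with edgeR.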

How the results depend on the processing

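Of 57 named genes called after colonization, all kept their sign in every alternative run. Called among them were 57 with TMM factors, 53 with library totals as scaling, 46 with the replicate block, 50 with sex as covariate, 46 with GC content smoothed out, 34 to 51 with libraries left out singly, 23 with the library total as covariate, 21 and 14 in the fits of 12 and 18 libraries, and 1 with edgeR or limma-voom. The count of 164 called genes became 1 with edgeR and 1 with limma-voom, 295 with library totals as scaling, 67 with the library total as covariate, 24 in one fit of 18 libraries, 45 in one fit of 12 libraries and 634 at adjusted p under 0.05. It ran from 81 to 656 when libraries were left out singly, the lowest without replicate 1 of COLONIZED-WT and the highest without replicate 1 labelled COLONIZED-Ern2-/-, and it was 91 without replicate 2 of that label. The cause of these shifts was not tested. With the replicate block 185 genes were called, 107 of them shared. Deviations from the group mean had correlations of 0.10, -0.26 and -0.02 between same-numbered libraries of the 2 labels. Between differently numbered ones they ran from -0.19 to 0.21. With 3 libraries per group, these values cannot decide whether a shared number marks a shared batch or litter.

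Against germ-free mice the 5 genes with an interaction became 0 with edgeR and 0 to 5 with libraries left out singly. Against conventional mice the 37 genes became 0 with edgeR, 170 at adjusted p under 0.05, 55 with the replicate block, and 0 to 1205 with libraries left out singly, the highest without replicate 3 of CONV-WT. The genotype fold changes of Ern1 and Xbp1 after colonization, called under none of its alternatives, reversed to 0.14 and 0.16 with the library total as covariate, and ran from -0.23 to 0.028 for Ern1 and from -0.21 to 0.056 for Xbp1 with libraries left out singly. Of 52 gene lists, 29 had a count of calls that moved by over 1.5 times without replicate 1 labelled COLONIZED-Ern2-/-. Depth limited genes such as Trib3 and Muc6, which had under 10 normalized counts in the libraries of one group.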

Other observations

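Several gene groups of the colon epithelium held no called gene, where 1.37% of all tested genes were called. Of the genes of cholesterol and fatty acid synthesis, 0 of 33 tested were called, with a median log2 fold change of 0.09 and 7 members higher without overlap and 0 lower, where 15.6 and 14.8% of all tested genes lay so. Fatty acid oxidation and ketogenesis, by which colonocytes use butyrate, had 0 calls among 31 and a median of 0.10. The ion transporters and channels of the colon had 0 among 28 (median -0.09), xenobiotic metabolism 0 among 70 (median -0.02), MHC and antigen presentation 0 among 21 (median -0.14), the proteasome 0 among 41 (median -0.03) and Notch ligands, receptors and targets, which set the balance of secretory and absorptive fates, 0 among 12 (median -0.14). The tuft cell signature had 5 higher and 4 lower calls among 454 tested genes, where 0.518 and 0.853% of all tested genes were called, and a median of -0.01, and the enteroendocrine signature 0 among 105 with a median of 0.08. These lists were described without a test, and a gene that was not called is not shown to be equal between the genotype labels.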
